A study of Mus musculus with 3 samples.

Results

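The ERV2 repeats other than IAP are class II endogenous retroviruses of the mouse and its relatives, that is, retroviral sequences related to betaretroviruses that entered the germline and multiplied there. Among the repeat consensus sequences counted in each library, a member was any whose name carried the class label ERV2, or the words ETn or MusD, and did not carry IAP, the name of the intracisternal A particle. This gave 413 of 1564 repeat sequences. The rule used names alone, but it was set with earlier results of these data known. Of the 413, 88 had at least 1 read in at least 1 library, and 20 had at least 30 reads summed over the 3 libraries. Folds are given singly for those 20, which passed a minimum set on the sum of all libraries. Some of them, RLTR13A included, reached it only through their wildtype reads, so the minimum was not neutral for them.

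The libraries hold polyadenylated RNA from male mouse embryonic stem cells (ESCs), cultured pluripotent cells. There was 1 library from an ATRX knockout clone (ATRX-/-), 1 from a DAXX knockout clone (DAXX-/-) and 1 from a wildtype clone. Per the labels, all 3 are isogenic, of C57BL/6x129sV background, and the knockouts were derived by CRISPR targeting. The cells were grown in serum with leukaemia inhibitory factor after passage off irradiated feeder cells. Each genotype is thus 1 clone and 1 library, so no difference below has a replicate check, and genotype could not be tested. Each log2 fold is followed in parentheses by the 95% interval of the counts, which covers counting error only and compares libraries, not genotypes. A sequence was called higher or lower where this whole interval lay beyond 2-fold, which is the 2-fold rule below.

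An intact ERV2 element has an internal part, with the viral genes or their remains, between 2 copies of a long terminal repeat (LTR) that holds the promoter and the polyadenylation signal. MusD elements carry viral genes and supply the proteins with which ETn elements, which lack them, move. Both are known for new insertions that cause mutations in laboratory mice. In ESCs such elements are held down by the corepressor TRIM28 and the histone methyltransferase SETDB1, and ATRX, a chromatin remodeller, acts with DAXX, a chaperone of the histone variant H3.3, at endogenous retroviruses.

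The DAXX knockout library was the shallowest, with 11224100 reads on transcripts, against 13988376 in the ATRX knockout and 13981915 in wildtype. Levels are given as reads per 1000000 of these transcript reads (RPM) or, where sequences of different length are compared, as RPM per kilobase of sequence (RPKM). Atrx had 1800 reads in the ATRX knockout, 3576 in the DAXX knockout and 4582 in wildtype, and Daxx had 972, 623 and 1125 in the same order. Scaled to depth, Atrx was at a log2 fold of -1.35 (-1.43 to -1.27) in the ATRX knockout, past the 2-fold rule. Daxx had 55.5 RPM in the DAXX knockout and 80.5 RPM in wildtype, a log2 fold of -0.54 (-0.68 to -0.39), which does not pass that rule, so the transcript level of the targeted gene is only moderately lower in the DAXX knockout library. The 10 pluripotency markers, Pou5f1 and Nanog among them, summed to 6150 RPM in the ATRX knockout, 6002 in the DAXX knockout and 5980 in wildtype, and 0 of the 10 passed the 2-fold rule in either knockout. Markers of 4 other cell types had lower sums in both knockouts. Endoderm markers summed to 359 RPM in the ATRX knockout, 211 in the DAXX knockout and 647 in wildtype, trophoblast markers to 58.4, 34.2 and 87.5, feeder fibroblast markers to 62.1, 49.3 and 89.3, and markers of 2-cell-like cells to 11.9, 6.68 and 13.2. By the 2-fold rule, of 9 endoderm markers with at least 30 reads 3 were lower in the ATRX knockout and 9 in the DAXX knockout, of 5 trophoblast markers 1 and 2, of 5 feeder markers 0 and 4, and of 4 markers of 2-cell-like cells 0 and 0. Over all 13197 genes with the same minimum, 1.12% were lower and 0.599% higher in the ATRX knockout. In the DAXX knockout 1.7% of them were lower and 0.371% higher. Among all the listed markers, Sox17 was at 0 reads in the DAXX knockout, Hand1 in the DAXX knockout, Elf5 in the ATRX knockout and wildtype, Cdx2 in wildtype, Col3a1 and Postn in both knockouts, and Tcstv1 and Zfp352 in the ATRX knockout. Cdx2 went against the trophoblast sum, with 13 reads in the ATRX knockout and 3 in the DAXX knockout, under the minimum of 30 reads. Its interval in the ATRX knockout began at a log2 fold of 1.61. Krt8, at 31.0, 19.9 and 44.0 RPM, was the largest part of that sum. Vim, at 49.0 RPM in the ATRX knockout, 42.0 in the DAXX knockout and 60.0 in wildtype, was the largest part of the feeder sum. It passed the 2-fold rule in neither knockout. The part of these cell types in the repeat values below was not tested. In RNA from a whole culture, fewer cells of a type and less RNA per cell cannot be told apart.

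Together the 413 members took 47339 reads in the ATRX knockout, 41104 in the DAXX knockout and 38721 in wildtype. That is 0.336% of all aligned reads in the ATRX knockout, 0.363% in the DAXX knockout and 0.275% in wildtype. They made up 43.3% of the reads on repeats in the ATRX knockout, 36.6% in the DAXX knockout and 39.1% in wildtype. Scaled to transcript reads, the summed level was 3384 RPM in the ATRX knockout, 3662 in the DAXX knockout and 2769 in wildtype. The ATRX knockout was 1.22-fold above wildtype, a log2 fold of 0.29 (0.27 to 0.31), and the DAXX knockout was 1.32-fold above it, a log2 fold of 0.40 (0.38 to 0.42). Both intervals lie above 0 and well inside 2-fold. The other 1151 repeat sequences in sum were at 0.04 (0.02 to 0.06) in the ATRX knockout and 0.56 (0.54 to 0.57) in the DAXX knockout. That sum joins classes on both sides of 0 in the ATRX knockout. LINE-1 sequences were at -0.58 there and at 0.25 in the DAXX knockout. The 519 sequences outside IAP, ERV1, ERV3 and LINE-1 were at 0.37 and 0.64, above the members in both knockouts. Between the knockouts the log2 fold of the members in sum, ATRX over DAXX, was -0.11 (-0.13 to -0.09).

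This sum is in effect the sum of the ETn/MusD sequences. They held 98.8% of member reads in the ATRX knockout, 98.3% in the DAXX knockout and 98.0% in wildtype, with a single sequence, MMETN, at 84.8%, 83.8% and 85.4% in the same order. The other 408 members together had 553 reads in the ATRX knockout, 699 in the DAXX knockout and 773 in wildtype. For them the log2 fold was -0.48 (-0.64 to -0.32) in the ATRX knockout, the reverse of the direction of the whole sum, and 0.17 (0.02 to 0.32) in the DAXX knockout.

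Reads lay almost wholly on sequences named for the mouse. The 160 members with Mus in the name held 99.93% of member reads in the ATRX knockout, 99.90% in the DAXX knockout and 99.82% in wildtype. The 66 members named for Murinae or Muridae had 5, 12 and 15 reads in these libraries, the 80 named for the rat had 4, 3 and 9, and the 105 named for other mammals such as guinea pig, ground squirrel and kangaroo rat had 0 in all 3. A further 2, RLTR10B and RLTR10C, carry Homo sapiens in the name the table gives them and had 22, 25 and 46 reads in sum. Some of the mouse and murid sequences had no reads either. MMTV-int, the internal part of mouse mammary tumour virus, and MYSERV, MYSERV6 and MYSERV16_I had 0 reads in each library, which for a single sequence allows up to 0.214 RPM in the ATRX knockout, 0.267 in the DAXX knockout and 0.215 in wildtype.

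Of the 5 ETn/MusD sequences, 3 were abundant and 2 were rare. MMETN, a consensus of 4904 bases, had 40164 reads in the ATRX knockout, 34464 in the DAXX knockout and 33084 in wildtype. Its level was 585 RPKM in the ATRX knockout, 626 in the DAXX knockout and 483 in wildtype. This made it the most abundant repeat sequence per length in each library, and it ranked 112, 98 and 127 in the same order among all 50407 sequences counted, transcripts included. Both knockout libraries were above wildtype, with log2 folds of 0.28 (0.26 to 0.30) in the ATRX knockout and 0.38 (0.35 to 0.40) in the DAXX knockout.

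ETNERV, of 3314 bases, had 5528 reads in the ATRX knockout, 5006 in the DAXX knockout and 4162 in wildtype, or 119, 135 and 89.8 RPKM. Its log2 fold was 0.41 (0.35 to 0.47) in the ATRX knockout and 0.58 (0.52 to 0.64) in the DAXX knockout. RLTRETN_MM, the LTR of these elements, of 322 bases, had 1063 reads in the ATRX knockout, 897 in the DAXX knockout and 662 in wildtype, or 236, 248 and 147 RPKM. It gave the largest differences of the 3, with log2 folds of 0.68 (0.54 to 0.82) in the ATRX knockout and 0.76 (0.61 to 0.90) in the DAXX knockout. For each of these 3 sequences the order was the DAXX knockout, the ATRX knockout and then wildtype, and none passed the 2-fold rule in any comparison. For RLTRETN_MM the 2 knockouts did not differ beyond counting error, at -0.07 (-0.20 to 0.06) for ATRX over DAXX.

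The unequal size of these differences can be read inside each library, where scaling plays no part. Of the reads on ETNERV and MMETN together, ETNERV took 12.1% in the ATRX knockout (11.8% to 12.4%), 12.7% in the DAXX knockout (12.4% to 13.02%) and 11.2% in wildtype (10.9% to 11.5%). Of the reads on RLTRETN_MM and MMETN together, RLTRETN_MM took 2.58% in the ATRX knockout (2.43% to 2.74%), 2.54% in the DAXX knockout (2.38% to 2.71%) and 1.96% in wildtype (1.82% to 2.12%). These exact binomial intervals of both knockouts lie above that of wildtype. Reads that match the LTR and a longer ETn consensus equally well can be placed on either, and how many do so was not tested.

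The other sequences of the group, ETnERV2 and ETnERV3, have 7406 and 5808 bases. ETnERV2 had 18 reads in the ATRX knockout, 24 in the DAXX knockout and 19 in wildtype. ETnERV3 had 13 in the ATRX knockout, 14 in the DAXX knockout and 21 in wildtype. Both stood below 0.3 RPKM in each library, and their intervals for each comparison span 0.

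**Figure D1:**
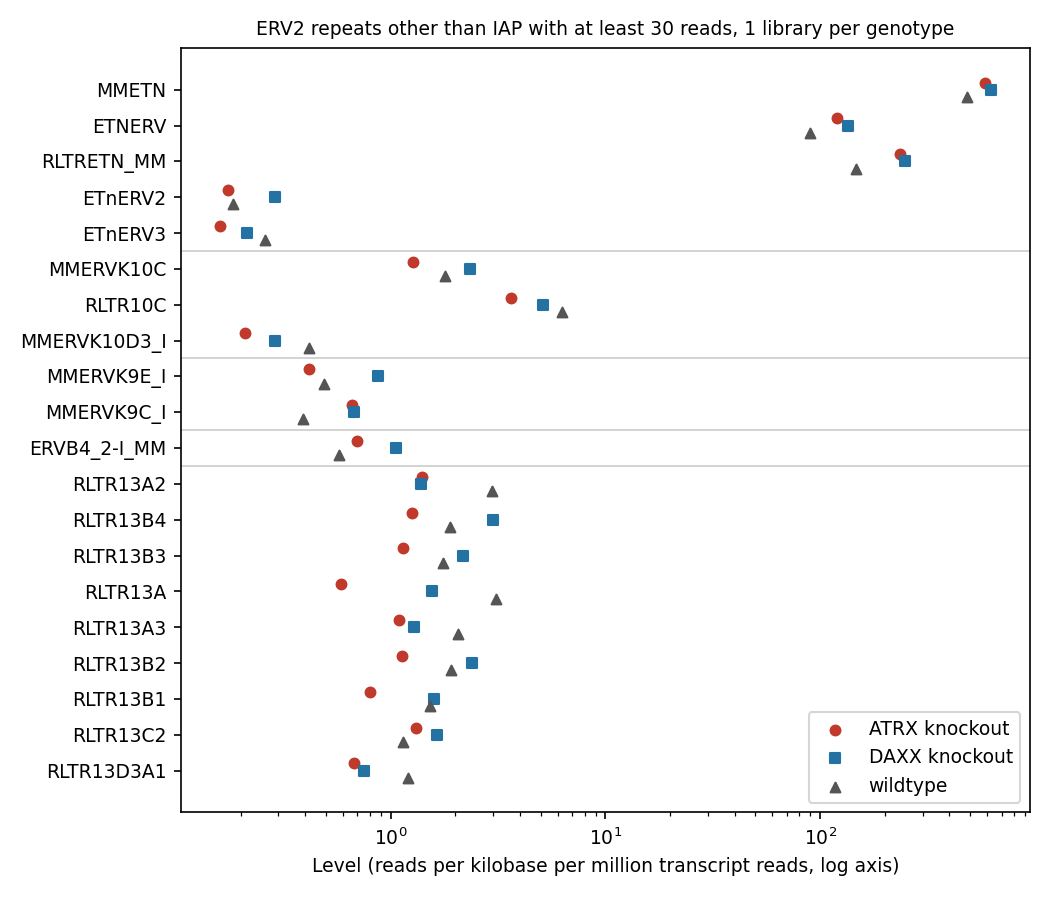
Level of the 20 members with at least 30 reads, in RPKM on a log axis, with 1 point for each library and grey lines between families. MMETN, RLTRETN_MM and ETNERV stand at 89.8 RPKM or more in each library, with both knockouts to the right of wildtype, and the other 17 stand between 0.16 and 6.26 RPKM.

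Outside ETn/MusD, 15 members reached 30 reads. Of all 20, 0 were higher and 0 lower by the 2-fold rule in the DAXX knockout, where 5.36% of the 112 repeat sequences with the same minimum were called higher and 0% lower. In the ATRX knockout 0 were higher and 1 was lower, where 2.68% of these repeat sequences were called higher and 0.893% lower. That 0.893% is the same single sequence, RLTR13A. RLTR13A reached 30 reads only through its 37 in wildtype, beside 7 in the ATRX knockout and 15 in the DAXX knockout. The minimum thus favoured this call. With no minimum beyond 1 read in the 2 libraries the number lower was also 1. That setting keeps RLTR13A in any case, so it does not check the call. The number was 0 with counts thinned to the smallest library. Between the knockouts 0 of 20 were higher and 0 lower for ATRX over DAXX, beside 0% and 1.79%. Depth limits this rule for most members, since a sequence with 30 reads in 1 of 2 equally deep libraries needs 92 in the other to be called higher, or 6 to be called lower.

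A looser count, of members whose whole interval lay on one side of 0, gave 7 above and 2 below in the DAXX knockout, beside 28.6% above and 9.82% below among the 112 repeat sequences. In the ATRX knockout it gave 4 above and 4 below, beside 9.82% above and 44.6% below. For ATRX over DAXX it gave 0 above and 8 below, beside 0% above and 56.2% below. The median log2 fold over the 20 was 0.34 in the DAXX knockout, against 0.08 over the 112 repeat sequences and -0.07 over 13197 genes with the same minimum. By summed reads the order against repeats was the reverse there, with all members at 0.40 and all other repeat sequences at 0.56. In the ATRX knockout the median was -0.57, against -0.54 over the repeat sequences and -0.05 over genes. For ATRX over DAXX it was -0.46, against -0.59 over the repeat sequences and 0.03 over genes. Lower values in the ATRX knockout were thus shared by most repeat sequences, 90 of 112 of which lay below 0 against wildtype, and were not a matter of these members alone.

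**Figure D2:**
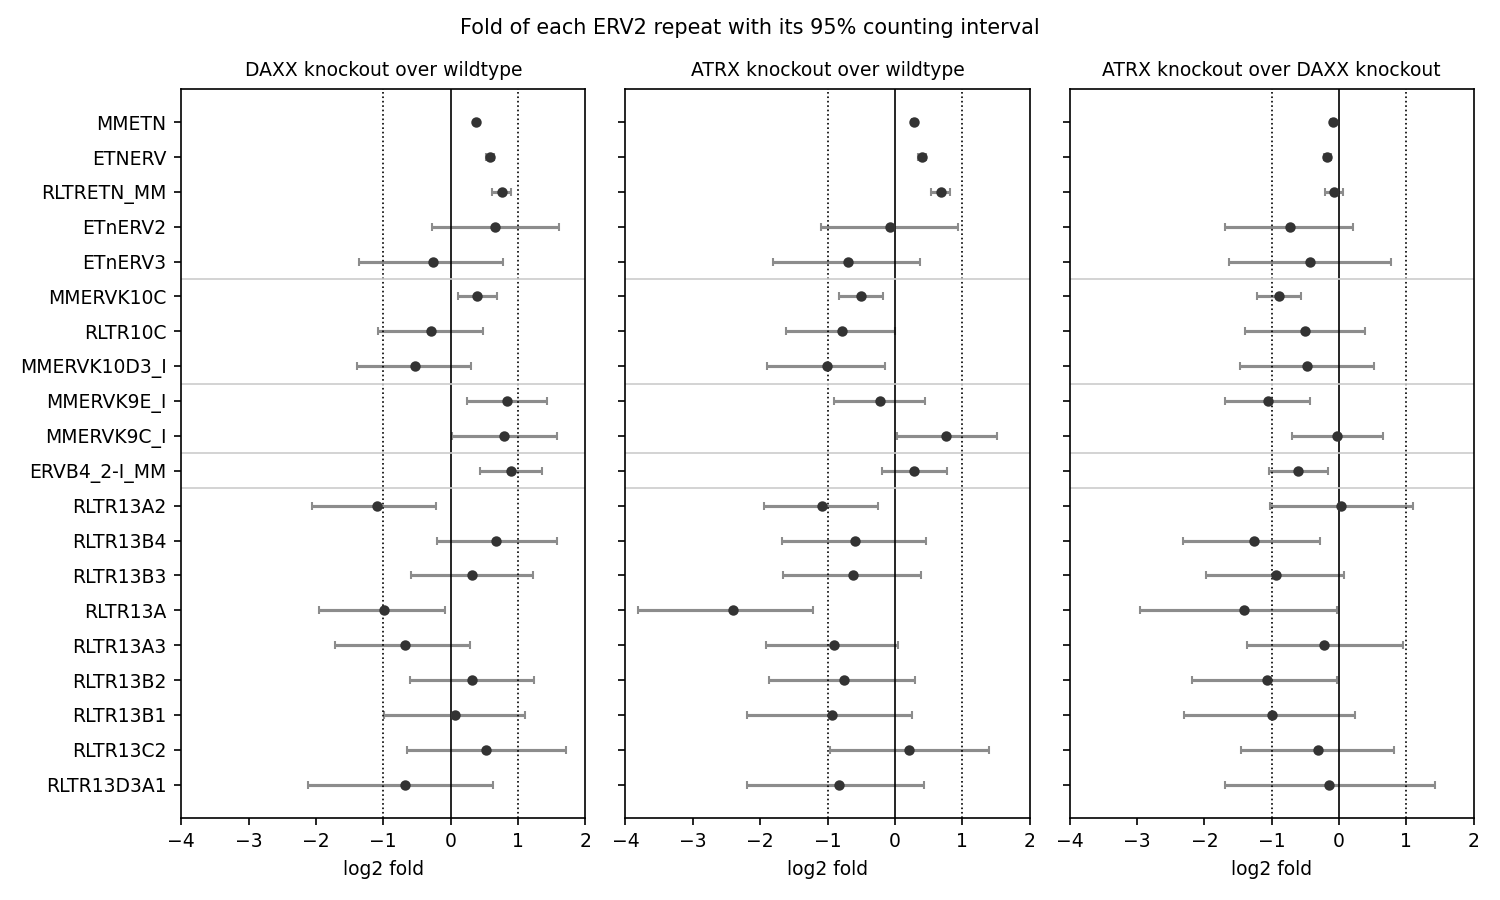
Log2 fold of each of the 20 members in the 3 comparisons, with points for the fold, bars for the 95% counting interval, a solid line at no change and dotted lines at 2-fold. RLTR13A in the ATRX knockout, at -2.40 (-3.81 to -1.22), is the 1 member whose whole interval lies beyond a dotted line.

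MMERVK10 elements are mouse ERV2 elements with viral genes, and RLTR10 sequences are LTRs of that family. The 14 sequences with either name had 200 reads in the ATRX knockout, 262 in the DAXX knockout and 292 in wildtype, and 3 of them reached 30 reads. The summed log2 fold was -0.55 (-0.81 to -0.28) in the ATRX knockout and 0.16 (-0.09 to 0.41) in the DAXX knockout, with ATRX over DAXX at -0.71 (-0.98 to -0.44). The 2 internal sequences summed to 10.9 RPM in the ATRX knockout, 19.6 in the DAXX knockout and 16.1 in wildtype, and the 12 LTR sequences to 3.43, 3.74 and 4.79 in the same order. In the DAXX knockout these gave 0.28 (0.01 to 0.56) and -0.36 (-0.95 to 0.22), intervals that overlap.

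MMERVK10C, an internal sequence of 7581 bases, had 134 reads in the ATRX knockout, 200 in the DAXX knockout and 189 in wildtype, or 1.26, 2.35 and 1.78 RPKM. The ATRX knockout was the lowest of the 3, with a log2 fold of -0.50 (-0.83 to -0.17) against wildtype and -0.90 (-1.22 to -0.57) against the DAXX knockout. The DAXX knockout was the highest, at 0.40 (0.10 to 0.69) against wildtype. MMERVK10D3_I had 18 reads in the ATRX knockout, 20 in the DAXX knockout and 36 in wildtype, with log2 folds of -1.0 (-1.90 to -0.15) in the ATRX knockout and -0.53 (-1.40 to 0.30) in the DAXX knockout. Its LTR, MMERVK10D3_LTR, had 2 reads in each knockout and 0 in wildtype.

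RLTR10C was the most abundant of the LTRs in this family, at 3.62 RPKM in the ATRX knockout, 5.13 in the DAXX knockout and 6.26 in wildtype. Its 22, 25 and 38 reads gave log2 folds of -0.79 (-1.62 to 0.01) in the ATRX knockout and -0.29 (-1.08 to 0.48) in the DAXX knockout, both of which span 0. RLTR10B had 0 reads in either knockout and 8 in wildtype. The upper ends of its intervals were log2 folds of -0.77 in the ATRX knockout and -0.45 in the DAXX knockout, so neither passed the 2-fold rule, and it was under the minimum of 30 reads. RLTR10A had 2 reads in the ATRX knockout, 1 in the DAXX knockout and 8 in wildtype, whereas RLTR10F had 7, 1 and 2 and RLTR10 had 10, 7 and 9. RLTR10B2 had 3, 4 and 0 reads in the same order, RLTR10D 1, 2 and 0, RLTR10D2 1, 0 and 0, and RLTR10E 0, 0 and 2. The rat sequences RLTR10_Rat and RLTR10B_Rat had 0 throughout. With so few reads no order among these LTRs can be read.

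MMERVK9 and ERVB4, further mouse ERV2 families, were highest in the DAXX knockout in sum. The 2 MMERVK9 sequences, MMERVK9C_I and MMERVK9E_I, summed to 5.72 RPM in the ATRX knockout, 8.55 in the DAXX knockout and 4.86 in wildtype. Their log2 fold was 0.23 (-0.25 to 0.72) in the ATRX knockout and 0.81 (0.35 to 1.28) in the DAXX knockout. MMERVK9E_I had 36 reads in the ATRX knockout, 60 in the DAXX knockout and 42 in wildtype, and MMERVK9C_I had 44, 36 and 26. After scaling, MMERVK9E_I was thus highest in the DAXX knockout, while the 2 knockouts were level for MMERVK9C_I, at -0.03 (-0.70 to 0.65) for ATRX over DAXX, an interval that also allows differences of over 1.5-fold either way.

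Of 13 ERVB4 sequences 7 had a read, and the family summed to 7.43 RPM in the ATRX knockout, 10.4 in the DAXX knockout and 6.72 in wildtype. The log2 fold was 0.15 (-0.27 to 0.56) in the ATRX knockout and 0.63 (0.23 to 1.04) in the DAXX knockout. ERVB4_2-I_MM, an internal sequence of 8374 bases, was the 1 member of the family with at least 30 reads. It had 82 in the ATRX knockout, 100 in the DAXX knockout and 67 in wildtype, and its log2 fold in the DAXX knockout, 0.89 (0.43 to 1.36), was the highest of the 20 members. Its LTR, ERVB4_2-LTR_MM, had 8, 8 and 6 reads. Of the 117 reads of the family in the DAXX knockout, 100 were on ERVB4_2-I_MM, so the family sum is mostly this sequence. ERVB4_1-I_MM had 6, 6 and 4 reads. In the other direction, ERVB4_1B-I_MM had 7, 1 and 11 reads, at -3.14 (-8.57 to -0.36) in the DAXX knockout. ERVB4_1B-LTR_MM had 1, 0 and 5 reads. All of these but ERVB4_2-I_MM were under the minimum of 30 reads.

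RLTR13 was the family with the most expressed sequences. These are LTRs, and 21 of the 22 listed had a read and 9 reached 30. They summed to 137 reads in the ATRX knockout, 173 in the DAXX knockout and 253 in wildtype, or 9.79, 15.4 and 18.1 RPM. The log2 fold was -0.89 (-1.20 to -0.58) in the ATRX knockout and -0.23 (-0.52 to 0.05) in the DAXX knockout.

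RLTR13A, of 857 bases, had 7 reads in the ATRX knockout, 15 in the DAXX knockout and 37 in wildtype, or 0.584, 1.56 and 3.09 RPKM. It fell by 2.40 on the log2 scale in the ATRX knockout (-3.81 to -1.22), and its log2 fold in the DAXX knockout was -0.99 (-1.96 to -0.09). With all libraries thinned at random to the depth of the smallest, the interval in the ATRX knockout was -3.57 to -0.94 and no longer cleared 2-fold. RLTR13A2 had 19 reads in the ATRX knockout, 15 in the DAXX knockout and 40 in wildtype, with log2 folds of -1.07 (-1.94 to -0.25) in the ATRX knockout and -1.10 (-2.06 to -0.21) in the DAXX knockout. RLTR13A3, with 15, 14 and 28 reads, gave -0.90 (-1.91 to 0.05) and -0.68 (-1.72 to 0.29) for the ATRX and DAXX knockouts, and RLTR13A1 had 5, 1 and 0 reads.

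Among the B sequences, RLTR13B2 had 13 reads in the ATRX knockout, 22 in the DAXX knockout and 22 in wildtype, and RLTR13B4 had 14, 27 and 21. Here the DAXX knockout was level with wildtype or above it, with log2 folds of 0.32 (-0.60 to 1.24) for RLTR13B2 and 0.68 (-0.20 to 1.58) for RLTR13B4, whereas the ATRX knockout gave -0.76 (-1.87 to 0.29) and -0.59 (-1.67 to 0.46). All 4 of these intervals span 0. RLTR13B1 and RLTR13B3, with 10, 16 and 19 reads and with 15, 23 and 23, also had their lowest read count in the ATRX knockout.

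Grouped by letter, the 4 A sequences summed to 3.29 RPM in the ATRX knockout, 4.01 in the DAXX knockout and 7.51 in wildtype, with log2 folds of -1.19 (-1.72 to -0.68) and -0.91 (-1.44 to -0.39) for the ATRX and DAXX knockouts. The 4 B sequences summed to 3.72, 7.84 and 6.08, with log2 folds of -0.71 (-1.24 to -0.20) in the ATRX knockout and 0.37 (-0.08 to 0.81) in the DAXX knockout. The 8 D sequences had 12 reads in the ATRX knockout, 16 in the DAXX knockout and 32 in wildtype, and RLTR13E had 3, 4 and 13. The 3 C sequences had 19, 16 and 13 reads, RLTR13F 4, 2 and 5, and RLTR13G 1, 2 and 0. In the DAXX knockout the A and B sums thus lay on opposite sides of wildtype, although the interval of the B sum includes 0. The grouping by letter was made after the values were seen.

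**Figure D3:**
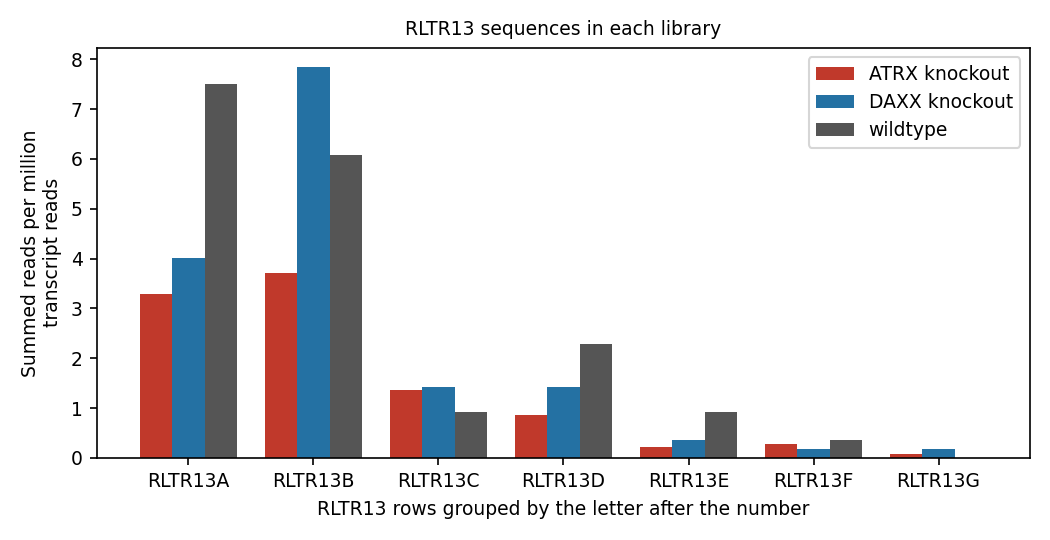
Summed reads per 1000000 transcript reads of the 22 RLTR13 sequences, grouped by the letter in their name, with 1 bar for each library. The wildtype bar is the tallest for the A group, at 7.51, and the DAXX knockout bar for the B group, at 7.84.

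The 357 members in no named family had 32 reads in the ATRX knockout, 51 in the DAXX knockout and 66 in wildtype, and none of them reached 30 over the 3 libraries. Their sum gave a log2 fold of -1.05 (-1.70 to -0.42) in the ATRX knockout and -0.06 (-0.61 to 0.49) in the DAXX knockout. RLTR17_MM led this group with 7, 10 and 10 reads. Over all members outside ETn/MusD, sequences counted as internal, meaning any not named as an LTR and so including RMER and BGLII sequences with few reads, summed to 24.2 RPM in the ATRX knockout, 39.5 in the DAXX knockout and 29.04 in wildtype. The LTR sequences among them summed to 15.4, 22.8 and 26.2 in the same order. In the ATRX knockout the internal sum stood at -0.27 (-0.48 to -0.05) and the LTR sum at -0.77 (-1.02 to -0.53). In the DAXX knockout the internal sum stood at 0.44 (0.25 to 0.64) and the LTR sum at -0.20 (-0.44 to 0.03). In both knockouts the LTR sum lay below the internal sum, with intervals that do not overlap. The 2 sums hold different families and so do not compare parts of the same elements. Of the LTR reads, RLTR13 gave 137 of 215, 173 of 256 and 253 of 367, in the order ATRX knockout, DAXX knockout and wildtype. MMERVK10C alone gave 134 of 338, 200 of 443 and 189 of 406 internal reads. MMERVK10 internal sequences stood at -0.57 (-0.87 to -0.26) in the ATRX knockout and the LTRs of that family at -0.48 (-1.05 to 0.07). RLTRETN_MM lay above MMETN in both knockouts.

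IAP, the other large group of mouse ERV2 sequences, gave larger differences in summed reads. The 40 sequences with IAP in the name summed to 585 RPM in the ATRX knockout, 846 in the DAXX knockout and 254 in wildtype, and rose by log2 folds of 1.20 (1.15 to 1.26) and 1.74 (1.68 to 1.79) in the ATRX and DAXX knockouts. By single sequences this was not general. Of 15 IAP sequences with at least 30 reads, 3 were higher by the 2-fold rule in the ATRX knockout and 4 in the DAXX knockout. None was lower, and the shares higher over 112 repeat sequences were 2.68% and 5.36%. The IAP median was -0.0006 in the ATRX knockout and 0.22 in the DAXX knockout, beside -0.57 and 0.34 for the members. Of the reads on IAP and members together, IAP took 14.7% in the ATRX knockout (14.4% to 15.03%), 18.8% in the DAXX knockout (18.4% to 19.1%) and 8.40% in wildtype (8.13% to 8.66%). These shares need no scaling between libraries, and their exact binomial intervals do not overlap. ERV1 sequences had a summed log2 fold of -0.07 (-0.20 to 0.06) in the ATRX knockout and 1.54 (1.43 to 1.65) in the DAXX knockout, and ERV3 sequences had -0.55 (-0.61 to -0.48) and -0.20 (-0.27 to -0.14) in the same order. The ETn/MusD sum, at 0.30 (0.28 to 0.32) in the ATRX knockout and 0.41 (0.39 to 0.43) in the DAXX knockout, lay below IAP and above ERV3 in both, and above ERV1 in the ATRX knockout but below it in the DAXX knockout.

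**Figure D4:**
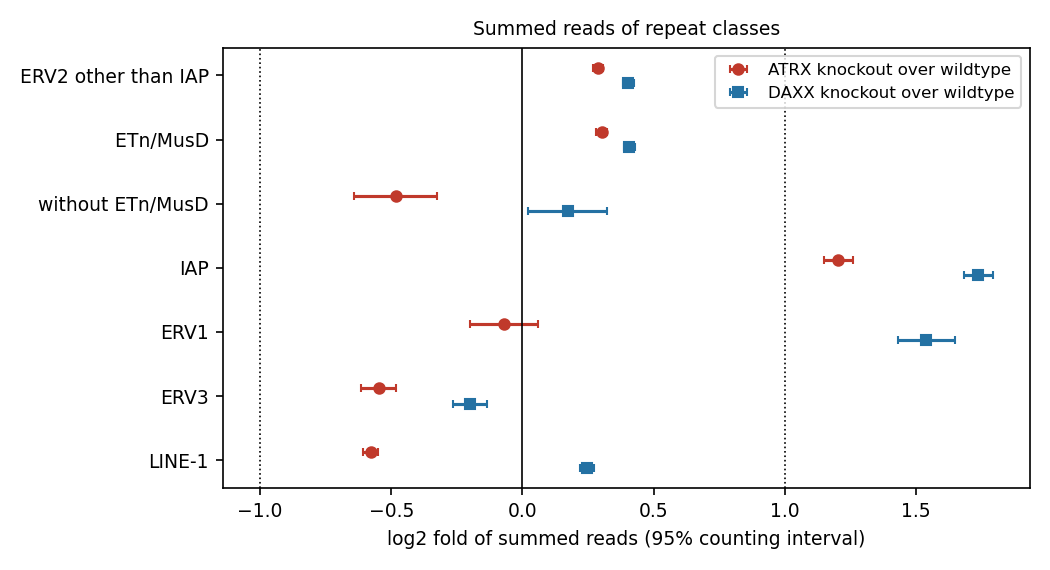
Log2 fold of summed reads in the ATRX knockout (circles) and the DAXX knockout (squares) against wildtype for the members, their ETn/MusD part, the rest of the members, and 4 other repeat classes, with 95% counting intervals and dotted lines at 2-fold. The members stand at 0.29 and 0.40, IAP at 1.20 and 1.74, and the members without ETn/MusD lie on opposite sides of 0.

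Genes that silence endogenous retroviruses in ESCs were measured in the same libraries, 40 of 40 listed with at least 30 reads. In the DAXX knockout 0 of the 40 rose and 1 fell, beside 0.371% higher and 1.7% lower among all 13197 genes. In the ATRX knockout 0 rose and 2 fell, one of them Atrx itself, beside 0.599% higher and 1.12% lower. For ATRX over DAXX 0 rose and 1, Atrx, fell, beside 0.78% and 0.311%. The list median was -0.11 in the ATRX knockout and -0.04 in the DAXX knockout, beside -0.05 and -0.07 over all genes.

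Apart from Atrx, 1 gene fell in each knockout, Dnmt3b in the ATRX knockout and Dnmt3l in the DAXX knockout. Dnmt3l, a cofactor of the de novo methyltransferases on chromosome 10 at 78041947 to 78063622 (GRCm38, GENCODE M21), had 411 reads in the ATRX knockout, 195 in the DAXX knockout and 905 in wildtype. Its log2 fold was -1.14 (-1.31 to -0.97) in the ATRX knockout, and it fell by 1.90 on the log2 scale in the DAXX knockout (-2.13 to -1.67). Dnmt3b, a de novo methyltransferase on chromosome 2 at 153649450 to 153687730, had 606, 922 and 1347 reads in the same libraries, fell by 1.15 in the ATRX knockout (-1.29 to -1.01) and stood at -0.23 (-0.35 to -0.11) in the DAXX knockout. Dnmt3a, the other de novo methyltransferase, was not called, at -0.21 (-0.28 to -0.13) in the ATRX knockout and 0.04 (-0.04 to 0.12) in the DAXX knockout. Dnmt1, the maintenance methyltransferase, was at 0.03 (-0.03 to 0.08) in the ATRX knockout and 0.21 (0.15 to 0.26) in the DAXX knockout.

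Among the other factors, Trim28 had 18023 reads in the ATRX knockout, 18986 in the DAXX knockout and 24359 in wildtype, with log2 folds of -0.44 (-0.46 to -0.41) in the ATRX knockout and -0.04 (-0.07 to -0.02) in the DAXX knockout. Setdb1 was at -0.29 (-0.38 to -0.20) in the ATRX knockout and -0.01 (-0.10 to 0.09) in the DAXX knockout. Atf7ip, the partner of SETDB1, on chromosome 6 at 136506167 to 136610862, had the highest folds of the list in both knockouts. Its 2188 reads in the ATRX knockout, 1825 in the DAXX knockout and 1207 in wildtype gave log2 folds of 0.86 (0.76 to 0.96) and 0.91 (0.81 to 1.02) for the ATRX and DAXX knockouts, short of 2-fold. H3f3b, one of the 2 genes for histone H3.3, was at -0.44 (-0.48 to -0.40) in the ATRX knockout and -0.46 (-0.50 to -0.42) in the DAXX knockout, while H3f3a, the other, was at 0.13 (0.09 to 0.16) and 0.10 (0.06 to 0.13). The zinc finger genes Zfp932 and Gm15446, whose products bind ERV2 sequences, had log2 folds between -0.18 and -0.06 in both knockouts, with intervals that span 0. The other 27 genes of the list were called in neither knockout, with log2 folds between -0.52 and 0.54 in the ATRX knockout and between -0.27 and 0.54 in the DAXX knockout. Zfp819 was the highest of these in both. They were the zinc finger genes Zfp809, Zfp708, Zfp961, Zfp819, Zfp42 and Yy1; the histone methyltransferase genes Suv39h1, Suv39h2, Ehmt1 and Ehmt2 and the demethylase gene Kdm1a; the heterochromatin protein genes Cbx1, Cbx3 and Cbx5; the DNA methylation genes Uhrf1 and Hells; the histone chaperone genes Hira, Chaf1a and Chaf1b; Mphosph8, Pphln1 and Fam208a of the HUSH complex; and Morc3, Smarcad1, Sumo2, Rif1 and Trim33.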

How the data were processed

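Polyadenylated RNA was sequenced from 3 clones, 1 library each. The authors deposited raw counts of aligned reads per reference sequence, not normalised, with 48843 transcripts and 1564 repeat consensus sequences per table. Build GRCm38.p4, SAMtools and Bowtie 1.1.2 are named, per the submitters' processing notes. Alignment settings, the placement of reads with several equal positions and the use of strand are not given in the sources used here. Related consensus sequences can therefore exchange reads. In all libraries, 77.01% to 78.9% of reads were aligned.

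Counts were divided by each library's transcript reads. Transcripts were summed to 24006 gene symbols. Log2 folds carry exact conditional binomial (Clopper-Pearson) 95% intervals (SciPy 1.17.1), which cover counting error only and treat PCR copies as independent. A sequence was called where its whole interval lay beyond 2-fold, among sequences with at least 30 reads over the 3 libraries. Medians used a prior count of 1. The upper limit of a count of 0 was taken as 3 reads. Alternative scaling used TMM factors (edgeR 4.0.16, R 4.3.3). Sequences named were all ETn/MusD, MMERVK10 and RLTR10 sequences, the 10 highest per length, up to 6 called in each direction per comparison, and further members chosen after their values were seen. Genes named were Atrx, Daxx and every gene of the silencing list. Internal and LTR sequences were told apart by name. Members and lists were chosen with earlier results of these data known.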

Additional observations from a re-analysis of the deposited data

How the results depend on the processing

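Each genotype had 1 library, so none could be left out. No paired analysis was possible because each group has 1 library, which leaves 0 residual degrees of freedom. Values are log2 folds in the order DAXX knockout over wildtype, ATRX knockout over wildtype and ATRX over DAXX. The summed fold moved to 0.50, 0.36 and -0.14 with TMM scaling, to 0.55, 0.35 and -0.21 without MMETN, to 0.48, 0.31 and -0.17 with LTR sequences alone, and to 0.12, -0.46 and -0.58 without ETn/MusD and MMERVK10. It moved by less than its counting interval with all aligned reads, thinned counts or internal sequences alone. With an interval beyond 1.5-fold, 1 member (RLTRETN_MM) was higher in the DAXX knockout. The share of all repeat sequences at 1.5-fold was not computed, so this count has no background to be read against. The 1 member lower in the ATRX knockout became 0 with thinned counts and 0 with a minimum of 300 reads, which RLTR13A does not reach. The median fold was 0.16, -0.74 and -0.57 with no minimum, and 0.49, 0.34 and -0.14 with a minimum of 300 reads, where the direction in the ATRX knockout turned because 3 of the 4 members left are ETn/MusD. It was 0.58 and -0.075 with internal sequences alone and 0.065 and -0.76 with LTR sequences alone for the 2 knockouts against wildtype. Thinned counts gave -0.44 in the ATRX knockout, and leaving out ETn/MusD and MMERVK10 gave -0.72 there and -0.60 for ATRX over DAXX. For members named by rule and with at least 30 reads, 36 folds were recomputed with TMM scaling, with all aligned reads and with thinned counts. Agreement is a weak check here, since intervals are wide at few reads. With all aligned reads 36 of 36 were unchanged in this sense. In all, 102 of 108 recomputed folds kept their call and stayed within their interval. Of the others, 5 were ETNERV or MMETN under TMM scaling and 1 was RLTR13A. Where no cause is named, the cause was not tested.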
